A study of Mus musculus with 15 samples.

Results

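Macrophages grown from mouse bone marrow at a moderate concentration of CSF-1 (colony-stimulating factor 1, also called M-CSF) were compared with macrophages kept longer and at a higher concentration. The members are 6 of the 15 libraries of the series, taken as the columns of the deposited table that the labels give to these stages, and the comparison was made over all genes. The cells came from male C57BL/6 mice aged 8 to 10 weeks, and no genetic change is named. Immature macrophages had spent 2 days at 0.6 ng/ml CSF-1 in medium with 15% FCS (fetal calf serum) and then 4 days at 12 ng/ml in 10% FCS, 6 days in all. Mature macrophages had spent 1 day at 0.6 ng/ml, 2 days at 12 ng/ml and the last 7 days at 120 ng/ml in 10% FCS, 10 days in all. CSF-1 concentration, total time and the length of each earlier step therefore differ together between the groups and cannot be told apart. Precursors, the cells after 2 days at 0.6 ng/ml, are the third group of the same table, and their levels are given where they help to place a change. Each group had 3 libraries, numbered by mouse 1 to 3, and p-values measure the spread between these libraries.

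CSF-1 is the growth factor of the macrophage lineage. It binds the receptor tyrosine kinase Csf1r, which signals through the ERK and PI3-kinase pathways, keeps macrophages alive and lets them divide through D-type cyclins. Macrophages also take up lipid from dead cells and balance sterol synthesis, driven by SREBP transcription factors when membrane cholesterol is low, against sterol export, driven by LXR receptors when oxysterols are high. Adherent macrophages hold on to matrix by integrins in podosomes and degrade matrix with secreted and surface proteases, and adhesion, motility and matrix degradation are the subjects the series names.

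The 6 libraries held between 7897769 and 13937925 reads assigned to genes. Levels are CPM, the counts of a gene relative to the TMM-scaled size of its library, always in the order of libraries 1, 2 and 3. Changes are log2 fold changes of mature over immature macrophages ± an approximate SE, with n = 3 a group. The words rose and fell are used where edgeR's quasi-likelihood test gave a Benjamini-Hochberg adjusted p under 0.05. The SE is the size of the log2 fold change divided by the square root of this test's F statistic. For genes near 0 reads it is a rough guide, as leaving out 1 library can move the change by more. Of 13359 genes tested, 1991 (14.9%) changed, 1005 (7.52%) of them upward and 986 (7.38%) downward, and 1374 (10.3%) changed by at least 2-fold, 656 (4.91%) upward and 718 (5.37%) downward. Counts of called members in the lists below stand against the 7.52% and 7.38%. Without immature library 2, 423 rose and 584 fell, and without immature library 1, 571 rose. The median log2 fold change of all genes tested was 0, with quartiles of -0.42 and 0.40. In 4297 genes (32.2%) the 3 libraries of one group all lay above those of the other. These are bulk libraries, in which fewer cells of a type and less RNA per cell cannot be told apart. The macrophage markers Csf1r, Adgre1, Cd68 and Itgam were expressed in all 6 libraries, and their values stand beside the gene groups they belong to.

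**Figure D1:**
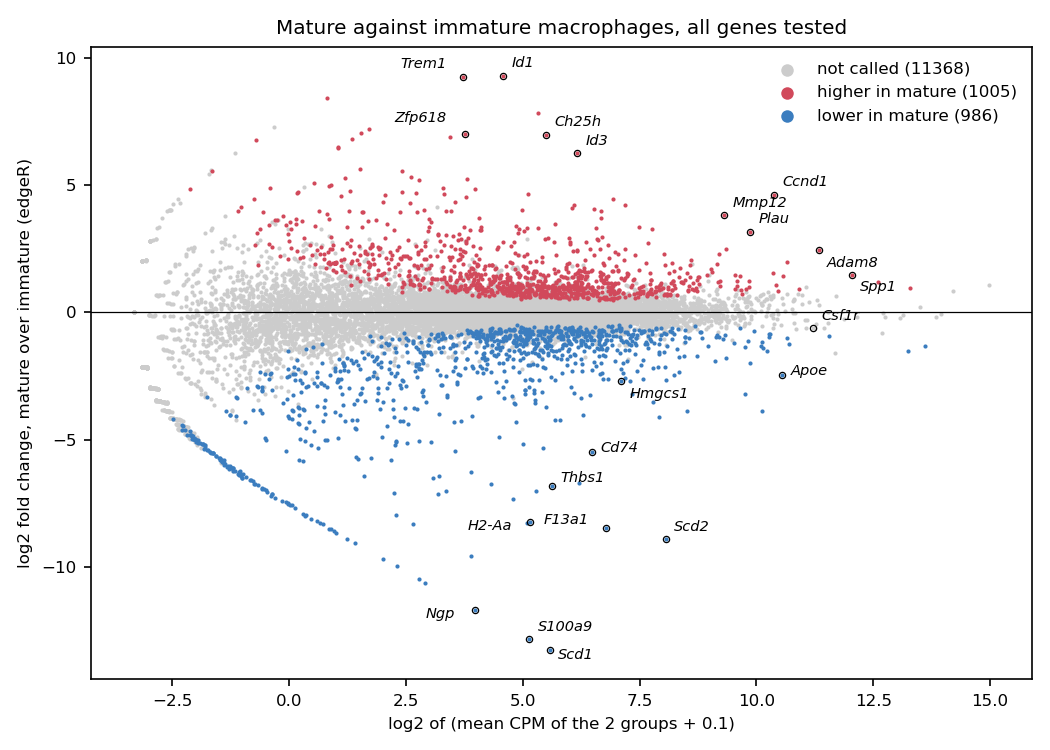
Each point is 1 of the genes tested, with the mean level of both groups on the x axis (log2 of CPM + 0.1) and the log2 fold change of mature over immature macrophages on the y axis. Called genes, 1005 higher in red and 986 lower in blue, lie on both sides of 0, and the curved edge at the lower left is formed by genes with 0 reads in mature macrophages, whose fitted change depends on the prior count.

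Of the lists described, sterol synthesis had the highest share of called genes. Of 24 tested genes of cholesterol synthesis and its control, 23 fell and 1, Hsd17b7, did not pass, against 7.38% of all genes that fell. The median log2 fold change of the list was -1.91. Mvd, the decarboxylase that makes isopentenyl diphosphate (ENSMUSG00000006517, chromosome 8, 122433601 to 122443422, minus strand), was at 90.6, 128 and 129 CPM in immature and 19.4, 13.9 and 12.2 CPM in mature macrophages. All 3 mature libraries lay below all 3 immature ones, and the log2 fold change was -2.93 ± 0.23 (adjusted p = 4.3e-05). Hmgcs1, which makes HMG-CoA at the head of the pathway (ENSMUSG00000093930, chromosome 13, 119690379 to 119708260, plus strand), went from 177, 277 and 259 CPM to 27.1, 53.6 and 29.5 CPM, a change of -2.70 ± 0.28 (adjusted p = 0.000243). Insig1, the membrane protein that holds SREBP back when sterol is plentiful and is itself an SREBP target (ENSMUSG00000045294, chromosome 5, 28071363 to 28078662, plus strand), went from 206, 286 and 261 CPM to 24.9, 60.4 and 40.6 CPM, a change of -2.58 ± 0.29 (adjusted p = 0.000383). Fdft1, squalene synthase, fell by a similar amount, from 45.6, 70.9 and 67.9 CPM to 8.42, 11.6 and 10.2 CPM (-2.61 ± 0.23, adjusted p = 9.39e-05).

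Against precursors, 7255 of all genes tested (54.3%) differed in mature macrophages. Of the 24 sterol genes, 5 were lower in mature macrophages than in precursors, 2 were higher and 17 did not pass. Precursors had 21.3, 20.7 and 24.6 CPM of Mvd, 45.6, 45.6 and 51.5 CPM of Hmgcs1 and 36.2, 29.5 and 30.9 CPM of Insig1. The fold from precursors to mature macrophages was -0.54 ± 0.22 for Mvd (adjusted p = 0.0569), -0.38 ± 0.27 for Hmgcs1 (adjusted p = 0.253) and 0.38 ± 0.28 for Insig1 (adjusted p = 0.27), on the log2 scale. Fdft1 was lower than in precursors, which had 16.3, 17.6 and 21.4 CPM (-0.88 ± 0.23, adjusted p = 0.00743). Summed over the list, the level was 2146, 3373 and 3609 CPM in immature and 606, 962 and 720.5 CPM in mature libraries. All 3 immature sums lay above all 3 mature ones. Fdft1 and Mvd each overlap another annotated gene. Over the 6 libraries, the reads of Ctsb came to 49200% of those of Fdft1, and the reads of Gm20388 to 487% of those of Mvd. Of the 31-base words of Fdft1 transcripts 31.9% occur in another gene, and of those of Mvd 0%. Reads of Fdft1 and of Mvd may therefore be shared with the overlapping gene.

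The promoters of these genes were read from RefSeq (GRCm38.p6), as windows from 250 bases before to 50 bases after each listed start, and are shown because the genes moved together. Of the 25 genes on the list, 17 had a window. The 4 printed belong to the genes with the lowest p among those that fell and had a window. Capitals mark CCAAT on either strand, the site of the factor NF-Y that works beside SREBP at sterol genes, and TCACNCCAC on either strand, a core of the sterol regulatory element.
Mvd, chr8:122443373-122443672, minus strand: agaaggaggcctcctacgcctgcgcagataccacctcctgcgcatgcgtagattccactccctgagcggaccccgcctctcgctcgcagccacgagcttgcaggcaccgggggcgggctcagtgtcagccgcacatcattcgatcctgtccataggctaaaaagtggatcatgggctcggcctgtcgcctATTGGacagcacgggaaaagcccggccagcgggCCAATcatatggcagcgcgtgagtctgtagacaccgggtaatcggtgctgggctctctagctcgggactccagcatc
Hmgcs1, chr13:119690101-119690400, plus strand: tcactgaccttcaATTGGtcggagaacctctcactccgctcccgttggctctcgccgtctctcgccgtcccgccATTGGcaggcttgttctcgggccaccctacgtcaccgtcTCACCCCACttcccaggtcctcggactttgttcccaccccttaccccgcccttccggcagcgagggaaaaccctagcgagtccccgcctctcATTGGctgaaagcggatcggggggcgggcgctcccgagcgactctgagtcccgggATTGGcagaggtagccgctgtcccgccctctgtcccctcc
Insig1, chr5:28071162-28071461, plus strand: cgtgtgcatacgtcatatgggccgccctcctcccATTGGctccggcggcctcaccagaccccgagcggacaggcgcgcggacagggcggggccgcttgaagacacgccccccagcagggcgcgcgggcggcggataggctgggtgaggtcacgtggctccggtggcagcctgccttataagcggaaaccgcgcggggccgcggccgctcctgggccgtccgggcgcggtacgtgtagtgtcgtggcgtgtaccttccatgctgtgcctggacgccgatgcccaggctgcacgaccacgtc
Cyp51, chr5:4104648-4104947, minus strand: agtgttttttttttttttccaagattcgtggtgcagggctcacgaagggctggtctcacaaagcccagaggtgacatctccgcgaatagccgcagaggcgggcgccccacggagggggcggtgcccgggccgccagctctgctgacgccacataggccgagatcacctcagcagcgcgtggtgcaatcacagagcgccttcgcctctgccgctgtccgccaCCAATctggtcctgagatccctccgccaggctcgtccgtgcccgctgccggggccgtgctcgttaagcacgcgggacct

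CCAAT was present in 16 of the 17 windows of the list, against 41.1% of the 27025 genes with a window. Mvd held 2 copies, Hmgcs1 4, and Insig1 and Cyp51 1 each. TCACNCCAC was found in the window of Hmgcs1 alone among the 17, against 1.44% of genes. These matches describe the windows, and the data hold no measurement of binding there.

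Among fatty acid genes, the desaturases Scd1, Scd2 and Fads2 fell to near 0. Of 11 tested desaturases and elongases, taken by name after the values were seen, 5 fell (Fads1, Fads2, Scd1, Scd2 and Scd4), 1 rose (Fads6) and 5 did not pass. Scd1, the stearoyl-CoA desaturase that makes monounsaturated fat (ENSMUSG00000037071, chromosome 19, 44394451 to 44407709, minus strand), was at 80.2, 112 and 93.4 CPM in immature macrophages and had 0 reads in all 3 mature libraries, against 2839 reads in the immature ones. With 3 reads over the group as the floor it was at least 1061-fold lower (adjusted p = 1.83e-05), or at least 675-fold without mature library 1 and at least 653-fold without mature library 3. Scd2, its homologue outside the liver, went from 171, 619 and 811 CPM to 0.0810, 1.17 and 2.07 CPM (-8.89 ± 0.82, adjusted p = 0.000105). Fads2, the delta-6 desaturase of polyunsaturated fat, went from 20.3, 67.2 and 76.05 CPM to 0, 0.702 and 0.383 CPM (-7.32 ± 0.74, adjusted p = 0.000198). Immature library 1 was the lowest of its group for Scd2 and Fads2, and the groups did not overlap in either. Precursors sat between the groups for Scd1, at 9.42, 18.9 and 14.3 CPM. Counting intervals, floors and bounds cover counting error only. Without mature library 1, the log2 fold change was -6.69 for Fads2. A fit lacking mature library 2 gave -8.05 for Fads2. With mature library 3 left out, the log2 fold change was -9.90 for Scd2.

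Enzymes earlier in fatty acid synthesis fell by less. Fasn, fatty acid synthase, went from 107, 265 and 336 CPM to 38.7, 84.8 and 63.99 CPM (-1.92 ± 0.40, adjusted p = 0.0101), and Acaca, acetyl-CoA carboxylase, from 62.3, 107 and 118 CPM to 31.2, 51.7 and 49.7 CPM (-1.11 ± 0.26, adjusted p = 0.0171). Fabp5, a fatty acid carrier, fell from 974, 940.4 and 691 CPM to 286, 153 and 257 CPM (-1.90 ± 0.29, adjusted p = 0.00198). Of 21 tested genes of lipid uptake and storage, 5 fell, 2 rose and 14 were not called, the median being -0.08. The genes that rose were Lipa, the lysosomal acid lipase, from 1351, 1548 and 1133 CPM to 2984, 2275 and 2281 CPM (0.90 ± 0.22, adjusted p = 0.0217), and the lipid droplet coat gene Plin2. No member rose without immature library 1, immature library 2 or mature library 1, and 4, 2 and 3 fell. Without mature library 2, 2 rose and 3 fell, and by limma 1 rose and 3 fell. The call of Acaca was lost without immature library 2 (adjusted p = 0.0722). The call of Lipa was lost without immature library 1 (adjusted p = 0.0555), immature library 2 (adjusted p = 0.0516), immature library 3 (adjusted p = 0.0684) and mature library 1 (adjusted p = 0.0567).

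A list of 15 tested genes of cholesterol efflux and LXR response had 9 that fell, 1 that rose and 5 that were not called, the median being -1.55. The 9 hold Abcg1, Abca9, Pltp and the apolipoproteins Apoe and Apoc2, which carry or transfer lipid, and Srebf1, Lpcat3, Scd1 and Scd2, which serve fatty acid and phospholipid synthesis. Abcg1, which passes cholesterol to HDL (ENSMUSG00000024030, chromosome 17, 31057698 to 31115777, plus strand), fell from 271, 326 and 221 CPM to 61.8, 16.97 and 46.8 CPM (-2.70 ± 0.41, adjusted p = 0.00191). Apoe, the lipoprotein that carries exported lipid, went from 5146, 1649 and 842 CPM to 371, 789.9 and 227 CPM (-2.46 ± 0.62, adjusted p = 0.0237). Its highest mature library lay just below its lowest immature one. Scarb1, a receptor that exchanges cholesterol with HDL and belongs to the scavenger receptor list, fell from 236, 262 and 176 CPM to 41.1, 50.2 and 78.1 CPM (-1.99 ± 0.25, adjusted p = 0.000675). The efflux and LXR member that rose was Ch25h, the enzyme that makes 25-hydroxycholesterol, an oxysterol that restrains SREBP (ENSMUSG00000050370, chromosome 19, 34473786 to 34475135, minus strand). It stood at 0.709, 0.307 and 1.15 CPM in immature and 64.1, 95.4 and 108 CPM in mature macrophages, with 0 reads in precursors (6.97 ± 0.41, adjusted p = 3.38e-05). The log2 fold change without immature library 1 was -1.43 for Apoe (adjusted p = 0.071). Without mature library 2, the log2 fold change was -3.09 for Apoe. The call of Apoe was lost without mature library 1 (adjusted p = 0.0744) and mature library 3 (adjusted p = 0.0547).

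**Figure D2:**
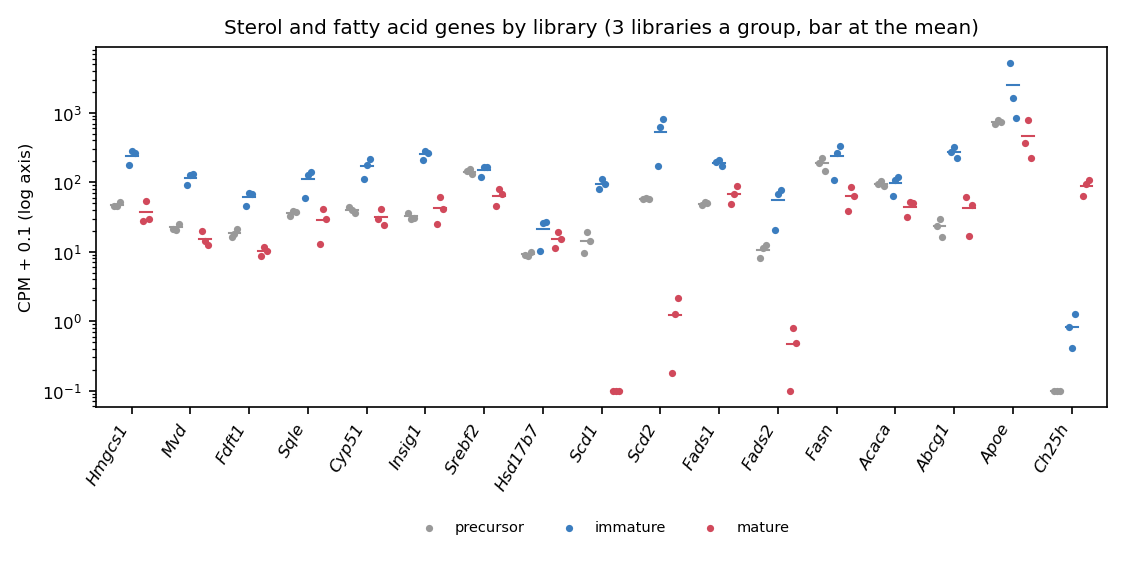
Points are libraries, 3 for each stage, and short bars are means, with CPM + 0.1 on a log axis and genes along the x axis. The mature libraries lie below the immature ones for each sterol gene shown but Hsd17b7, whose groups overlap, and for Scd1 they lie at the floor of the axis, while Ch25h is high in mature macrophages.

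The D-type cyclin genes Ccnd1 and Ccnd2 rose in mature macrophages. Ccnd1, cyclin D1, which carries a growth factor signal into the cell cycle (ENSMUSG00000070348, chromosome 7, 144929931 to 144939925, minus strand), was at 5.59, 61.3 and 243 CPM in immature and 2590.4, 2980.1 and 2074 CPM in mature macrophages. The immature libraries were far apart and the mature ones close together, and the groups did not overlap (4.63 ± 1.05, adjusted p = 0.0144). Precursors had 141, 206 and 47.8 CPM. Its sister cyclin Ccnd2 went from 0.552, 1.13 and 1.92 CPM to 16.8, 16.1 and 10.5 CPM (3.66 ± 0.39, adjusted p = 0.000289), below the 104, 97.1 and 65.3 CPM of precursors. In Ccnd1, 22.3% of the 31-base words occur in another gene. A fit lacking immature library 3 gave 6.22 for Ccnd1. The call of Ccnd1 was lost without immature library 2 (adjusted p = 0.067).

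A pair of inhibitors of the same step, Cdkn2a and Cdkn2b, rose beside the cyclins. Cdkn2a, the locus of p16INK4a and p19ARF (ENSMUSG00000044303, chromosome 4, 89274471 to 89294653, minus strand), was at 0.394, 0.921 and 2.04 CPM in immature and 40.9, 33.2 and 16.2 CPM in mature macrophages (4.83 ± 0.55, adjusted p = 0.000387). Cdkn2b, the neighbouring p15INK4b gene, went from 0.630, 0.512 and 1.15 CPM to 19.5, 23.9 and 13.5 CPM (4.66 ± 0.49, adjusted p = 0.000243). Both were at or near 0 in precursors, at 0, 0.0404 and 0 CPM for Cdkn2a and 0, 0.202 and 0.161 CPM for Cdkn2b. Btg1, an antiproliferative gene of resting cells, fell from 212, 152 and 98.03 CPM to 32.5, 39.5 and 35.3 CPM (-2.11 ± 0.26, adjusted p = 0.000585). Of 24 tested regulators of the G1 phase, 6 rose (Ccnd1, Ccnd2, Cdk6, Cdkn2a, Cdkn2b and Mdm2) and 5 fell (Cdkn1b, Mxd1, Mxd4, Btg1 and Btg2), and 13 did not pass. The genes that rose thus hold both drivers and inhibitors of division, and those that fell are inhibitors of growth or division. With immature library 3 left out, the log2 fold change was 5.50 for Cdkn2a.

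Some negative feedback genes of receptor tyrosine kinases rose as well. Dusp4, a phosphatase that switches off ERK in the nucleus (ENSMUSG00000031530, chromosome 8, 34807297 to 34819894, plus strand), went from 4.26, 3.89 and 14.1 CPM to 138, 114 and 123 CPM (4.11 ± 0.47, adjusted p = 0.000395). Dusp6, which switches off ERK in the cytoplasm, went from 11.03, 17.2 and 67.9 CPM to 296, 349 and 334 CPM (3.36 ± 0.56, adjusted p = 0.00291). Dusp5, the nuclear ERK phosphatase, rose from 1.34, 0.512 and 0.767 CPM to 7.37, 4.80 and 5.13 CPM (2.67 ± 0.41, adjusted p = 0.00185). For Dusp6 the third immature library stood above the other immature libraries, as it did for Ccnd1. Of 30 tested genes of growth factor feedback, 10 rose, among them Spry2, Spred1, Etv1 and Etv5, 4 fell and 16 were not called, the median being 0.38 against 0 for all genes and 7.52% of all genes that rose. The 4 that fell were Ier3, Cish, Socs3 and Csf1. Cish and Socs3 are feedback genes of the JAK-STAT pathway, and Csf1 encodes CSF-1 itself. Csf1 went from 16.6, 8.29 and 3.96 CPM to 0.729, 0.351 and 0.383 CPM (-4.27 ± 0.55, adjusted p = 0.000769). The members that fell numbered 8 by DESeq2, 2 by limma, 2 without immature library 1 and 7 without mature library 3. The log2 fold change without immature library 1 was -3.61 for Csf1. Without immature library 3, the log2 fold changes were 4.89 for Dusp4 and 4.49 for Dusp6.

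The receptor itself did not pass the test. Csf1r (ENSMUSG00000024621, chromosome 18, 61105572 to 61132149, plus strand) was at 4253, 2476 and 1875 CPM in immature and 1458, 1861 and 2311 CPM in mature macrophages, and the groups overlapped (-0.61 ± 0.31, adjusted p = 0.212). Of 25 tested receptors of growth factors and cytokines, 2 rose, 6 fell and 17 did not pass, and 1 rose and 5 fell without immature library 1, immature library 2 or mature library 2. Of all genes, 7.52% rose and 7.38% fell, and the 2 that rose are close to that share. Tgfbr2, a subunit of the TGF-beta receptor, rose from 430.3, 327 and 302 CPM to 818, 630.3 and 1054 CPM (1.24 ± 0.23, adjusted p = 0.005). Igf1r, the receptor of insulin-like growth factor 1, fell from 20.8, 13.1 and 10.1 CPM to 2.59, 4.45 and 2.30 CPM (-2.27 ± 0.32, adjusted p = 0.0012), and Il6ra, a receptor subunit of interleukin 6, from 147, 104 and 67.9 CPM to 28.3, 40.1 and 30.5 CPM (-1.69 ± 0.26, adjusted p = 0.00215).

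Among the largest rises were the ID genes, which encode inhibitors of basic helix-loop-helix factors and are targets of BMP and TGF-beta signals through SMAD proteins. Id3 (ENSMUSG00000007872, chromosome 4, 136143497 to 136145755, plus strand) was at 1.89, 1.64 and 2.04 CPM in immature and 65.9, 256 and 103 CPM in mature macrophages (6.25 ± 0.51, adjusted p = 4.84e-05). Id2 went from 18.7, 14.1 and 19.3 CPM to 108, 83.5 and 144 CPM (2.69 ± 0.23, adjusted p = 5.94e-05). Id1 (ENSMUSG00000042745, chromosome 2, 152736251 to 152737410, plus strand) had 2 reads over the 3 immature libraries and 1377 over the mature ones, a pooled ratio of 614 with an exact 95% counting interval from 169.6 to 5075 (adjusted p = 0.000988). Its mature level differed widely between libraries, at 7.37, 108 and 27.9 CPM, and the ratio was 272 without mature library 2. Mature library 2 was the highest mature library for Id1, Id3 and the inhibitory SMAD gene Smad6, which went from 1.26, 0.921 and 2.04 CPM to 5.42, 29.02 and 8.65 CPM (3.36 ± 0.61, adjusted p = 0.00501). Precursors stood above the immature libraries in all 3 ID genes, with 25.4, 29.3 and 19.9 CPM of Id1, 105, 101 and 98.4 CPM of Id2 and 109.7, 113 and 118 CPM of Id3. Of 16 tested ID and SMAD pathway genes, 8 rose, 0 fell and 8 did not pass. The 8 were Id1, Id2, Id3, Smad1, Smad6, Smad7, Bmpr1a and Skil. At an unadjusted p under 0.05, 1 fell, as it did by DESeq2, and by limma 6 rose and 0 fell. Without immature library 2, 5 rose, and without mature library 3, 8 rose and 2 fell. A fit lacking mature library 2 gave 5.50 for Id3 and 2.34 for Smad6.

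**Figure D3:**
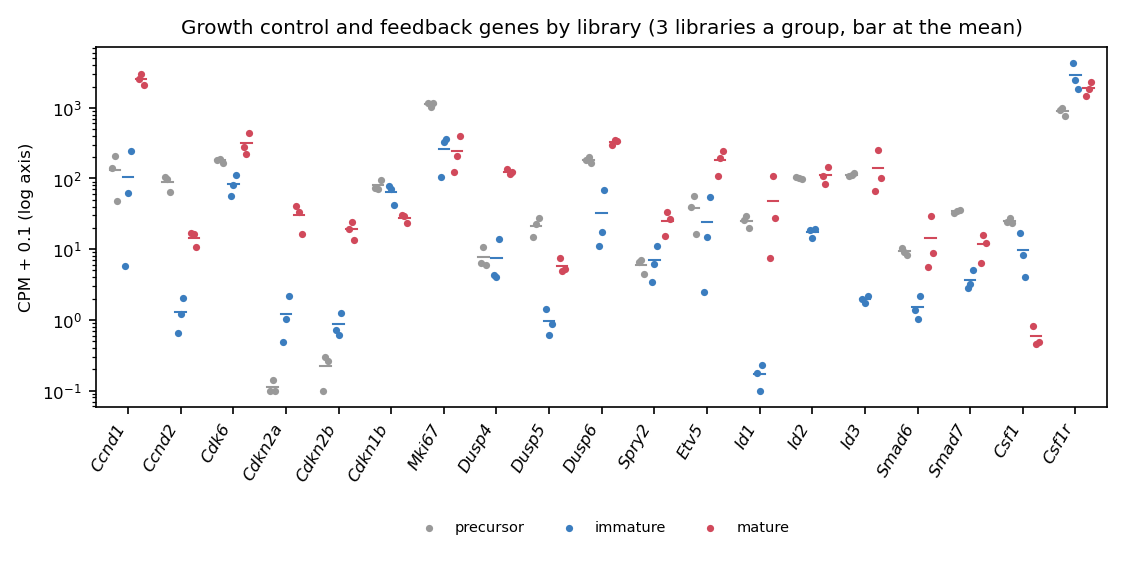
Points are libraries, 3 for each stage, with short bars at the mean and CPM + 0.1 on a log axis. Ccnd1, Cdkn2a, Dusp4 and Id3 are high in all 3 mature libraries, Csf1 is low in them, and the groups overlap for Mki67 and Csf1r.

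Genes of cell division were not called in either direction. None of 46 tested cell cycle genes passed edgeR's test, and 4 were higher and 0 lower at an unadjusted p under 0.05, with 1 higher by DESeq2 and 0 by limma. The median log2 fold change of the list was 0.06. Mki67, the proliferation marker, was at 105, 331 and 359 CPM in immature and 122, 209 and 402 CPM in mature macrophages (-0.12 ± 0.47, adjusted p = 0.912). None of 65 tested replication histone genes passed, with 3 lower and 0 higher at an unadjusted p under 0.05 and 0 by DESeq2 and limma. The libraries of each group differed among themselves in these genes. The mean log2(CPM + 1) over the cell cycle list was 3.70, 5.53 and 6.05 in immature and 4.86, 5.53 and 5.85 in mature macrophages, and over the histones it was 3.88, 6.20 and 6.45 against 4.40, 5.07 and 6.25. Immature library 1 was the lowest in both lists and in Ccnd1, Dusp6 and Fads2, and the part of this difference in those results was not tested. Without immature library 1, 3 cell cycle genes and 5 histone genes were lower and none higher, and without immature library 3, 5 cell cycle genes were higher. Without mature library 3, 7 histone genes were lower.

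Genes of antigen presentation by MHC class II fell in 6 of 11 cases, the I-A and I-E chains described here to near 0. Of the 11 tested genes, 6 fell, 1 rose and 4 did not pass. H2-Aa, the alpha chain of I-A (ENSMUSG00000036594, chromosome 17, 34282744 to 34287827, minus strand), was at 96.5, 60.5 and 57.1 CPM in immature and 0, 0 and 0.612 CPM in mature macrophages (-8.21 ± 0.63, adjusted p = 3.56e-05). H2-Eb1, the beta chain of I-E in the mouse nomenclature (ENSMUSG00000060586, chromosome 17, 34305877 to 34316199, plus strand), went from 91.6, 50.4 and 60.97 CPM to 0.162, 0.585 and 0 CPM (-8.26 ± 0.56, adjusted p = 2.17e-05). Cd74, the invariant chain that guides class II molecules to endosomes, fell from 231, 136 and 157 CPM to 2.35, 3.28 and 6.05 CPM (-5.48 ± 0.39, adjusted p = 2.22e-05). Ciita, the master activator of these genes, named here after its values were seen, was at 26.8, 9.72 and 8.18 CPM in immature macrophages and 0 reads in the mature libraries (adjusted p = 0.000419). The member that rose was H2-Ob, from 0.867, 0.409 and 0.767 CPM to 3.89, 2.93 and 1.22 CPM (adjusted p = 0.0191). No member rose without immature library 2, without mature library 1 or when only the 6 libraries were fitted. Summed over the list, immature libraries had 608, 353 and 391 CPM and mature ones 42.3, 32.3 and 33.1 CPM. The precursors were higher than both, at 962, 1366 and 1208 CPM of Cd74. With mature library 1 left out, the log2 fold change was -7.60 for H2-Aa. The log2 fold change without mature library 2 was -9.59 for H2-Eb1. Without mature library 3, the log2 fold changes were -12.86 for H2-Aa and -7.59 for H2-Eb1.

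The promoters of the class II genes share the CCAAT letters within their conserved upstream block, and the windows of H2-Eb1 and H2-Aa, which have the lowest p among members with a window, are given with CCAAT on either strand in capitals.
H2-Eb1, chr17:34305617-34305916, plus strand: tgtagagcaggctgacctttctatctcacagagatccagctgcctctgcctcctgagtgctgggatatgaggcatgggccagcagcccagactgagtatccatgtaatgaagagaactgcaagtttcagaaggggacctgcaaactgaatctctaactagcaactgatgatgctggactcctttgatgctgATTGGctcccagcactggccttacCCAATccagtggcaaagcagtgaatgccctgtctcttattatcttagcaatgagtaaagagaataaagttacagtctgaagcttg
H2-Aa, chr17:34287774-34288073, minus strand: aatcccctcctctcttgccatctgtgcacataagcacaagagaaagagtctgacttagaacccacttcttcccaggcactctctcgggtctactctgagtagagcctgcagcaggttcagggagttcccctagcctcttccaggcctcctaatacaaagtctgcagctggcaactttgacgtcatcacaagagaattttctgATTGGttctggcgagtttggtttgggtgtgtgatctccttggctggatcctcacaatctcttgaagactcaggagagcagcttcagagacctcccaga

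Of the 11 genes of the list 8 had a window, and all 8 held CCAAT, including those of genes that did not pass the test. H2-Eb1 held 2 copies and H2-Aa 1.

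Genes induced by interferon were lower in mature macrophages in part. Of 28 tested, 6 fell, 0 rose and 22 were not called, the median being -1.14, and 27 of 28 had a log2 fold change below 0. At an unadjusted p under 0.05, 14 were lower and 0 higher, with 9 lower by DESeq2, 3 by limma and 12 when only the 6 libraries were fitted, and 3 without immature library 2. Mx1, an antiviral GTPase, went from 50.9, 35.00 and 32.2 CPM to 3.72, 6.67 and 3.37 CPM (-3.12 ± 0.42, adjusted p = 0.00101), and Cmpk2, a mitochondrial nucleotide kinase, from 85.7, 67.5 and 64.5 CPM to 16.7, 14.7 and 16.6 CPM (-2.18 ± 0.34, adjusted p = 0.00206). Ifit2, an RNA-binding antiviral gene, fell from 236, 132 and 76.9 CPM to 29.9, 36.2 and 27.2 CPM (-2.26 ± 0.49, adjusted p = 0.0115). The letters GAAA, any 2 bases and GAAA again, a core of the interferon-stimulated response element, stood on either strand in the windows of 13 of 23 list genes, against 3.99% of genes. Of the 4 that fell and had a window, 2 held it.

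**Figure D4:**
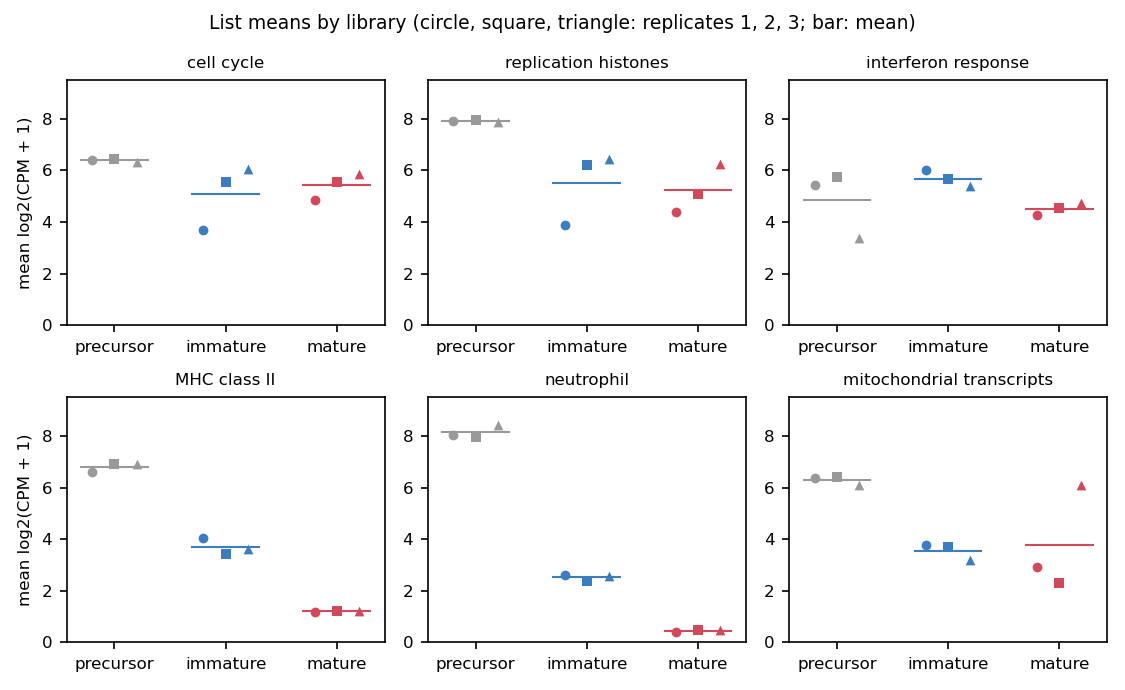
Each panel gives the mean log2(CPM + 1) over the members of a list in each of the 9 libraries, with the marker shape for the replicate number and a bar for the group mean. MHC class II and neutrophil genes step down from precursors to immature to mature macrophages, immature library 1 is low for cell cycle and histone genes, and mature library 3 is high for mitochondrial transcripts.

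Most markers of macrophage identity did not pass the test. Of 32 tested, 6 rose, 3 fell and 23 were not called, the list median being 0.19. The 3 that fell are close to the 7.38% of all genes, and 7.52% of all genes rose. Adgre1, which encodes F4/80 (ENSMUSG00000004730, chromosome 17, 57358686 to 57483529, plus strand), was at 1949, 1497 and 1175 CPM in immature and 3483, 2573 and 1430.1 CPM in mature macrophages (0.70 ± 0.33, adjusted p = 0.182). Cd68, a lysosomal glycoprotein, was at 893, 731 and 459 CPM and 563, 343 and 976 CPM (-0.15 ± 0.38, adjusted p = 0.846), and Mrc1, the mannose receptor, at 1469.7, 1958 and 1759 CPM and 1786, 1217 and 694 CPM (-0.49 ± 0.30, adjusted p = 0.302). The lineage factor Spi1, also called PU.1, was at 263, 211 and 198 CPM and 192, 137 and 266 CPM (-0.18 ± 0.23, adjusted p = 0.656). In each of Adgre1, Cd68, Mrc1 and Spi1 the groups overlapped. The 6 that rose were Vsig4, Marco, Msr1, Itgax, Cx3cr1 and Folr2, and the 3 that fell were Apoe, Clec4a2 and Axl. Cx3cr1 overlaps other annotated genes, whose reads over the 6 libraries came to 779% of its own, and reads may be shared. Its log2 fold change of 3.69 was 2.08 without mature library 2. The call of Cx3cr1 was lost without immature library 1 (adjusted p = 0.052) and immature library 2 (adjusted p = 0.0706). Without immature library 2, 3 rose and 3 fell, as they did by limma.

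Receptors for lipid, debris and lectin ligands moved both ways. Msr1, the class A scavenger receptor, rose from 99.3, 213 and 279 CPM to 1269, 1090.2 and 968 CPM (2.49 ± 0.42, adjusted p = 0.00304). Itgax, the integrin chain CD11c (ENSMUSG00000030789, chromosome 7, 128129547 to 128150657, plus strand), went from 8.12, 6.75 and 6.26 CPM to 77.96, 46.5 and 266 CPM (4.20 ± 0.57, adjusted p = 0.00102), with mature library 3 the highest. Axl, a receptor of dying cells, fell from 68.2, 33.2 and 28.5 CPM to 0, 1.40 and 2.91 CPM (-4.89 ± 0.72, adjusted p = 0.00158). Of the lectin receptor genes, Clec10a, Clec4a1, Clec4a2, Clec4a3 and Cd209a fell, while Clec4d and Clec12a rose. Clec4a3 went from 137, 66.2 and 46.01 CPM to 4.29, 7.84 and 7.19 CPM (-3.70 ± 0.41, adjusted p = 0.000331). C1qa, a chain of the complement component C1q, rose from 776, 577 and 614 CPM to 2858, 3139 and 1719 CPM (1.97 ± 0.36, adjusted p = 0.005). Of 10 tested complement genes it was the only one that rose, while C4b fell and 8 were not called. Of all genes, 7.52% rose and 7.38% fell. Without immature library 1, 2 complement genes rose and 0 fell. Of 19 scavenger and lectin receptors tested, 4 rose, 6 fell and 9 did not pass, and 2 rose without immature library 2 or without mature library 1. A fit lacking mature library 1 gave -4.28 for Axl. With mature library 3 left out, the log2 fold changes were 3.14 for Itgax and -6.15 for Axl.

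Several of the largest rises belonged to no macrophage list. Trem1, an amplifier of inflammatory signals (ENSMUSG00000042265, chromosome 17, 48232768 to 48246924, plus strand), had 1 read over the immature libraries and 916 over the mature ones, a pooled ratio of 817 with an exact 95% counting interval from 146 to 32298 (adjusted p = 2.22e-05), or at least 158-fold without immature library 1. Zfp618, a zinc finger gene, rose from 0.158, 0.205 and 0.256 CPM to 22.3, 28.7 and 29.01 CPM (7.00 ± 0.39, adjusted p = 1.69e-05). Ltbp2, a matrix protein that binds fibrillin, went from 0, 0.409 and 0.128 CPM to 7.37, 28.4 and 27.9 CPM (6.90 ± 0.78, adjusted p = 0.000383). Cd207, the Langerhans cell lectin langerin, was at 0, 0 and 1.28 CPM and 1.94, 175 and 63.4 CPM (7.81 ± 1.55, adjusted p = 0.00761), so its mature libraries were far apart. Tnf, the inflammatory cytokine, rose from 8.67, 5.01 and 8.31 CPM to 56.7, 67.4 and 95.6 CPM (3.32 ± 0.27, adjusted p = 4.64e-05), and Tnfsf9, the ligand of 4-1BB, from 1.26, 1.84 and 3.71 CPM to 25.3, 12.99 and 15.5 CPM (3.02 ± 0.41, adjusted p = 0.00107). The inflammatory list had 16 tested genes, 3 of them higher and 1 lower, and without immature library 1, 5 rose and 0 fell. None fell without mature library 1 or mature library 2. The log2 fold changes without immature library 1 were 6.18 for Ltbp2 and 7.07 for Cd207. Without immature library 2, the log2 fold changes were 8.49 for Ltbp2 and 7.21 for Cd207. A fit lacking immature library 3 gave 13.07 for Cd207. With mature library 1 left out, the log2 fold change was 8.40 for Cd207. The log2 fold change without mature library 2 was 6.50 for Cd207.

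Integrins, the receptors that bind matrix and other cells, rose more often than they fell. Of 19 tested, 7 rose, 4 fell and 8 were not called, the median being 0.51, against 7.52% of all genes that rose and 7.38% that fell. Itgb2, the beta chain of the leukocyte integrins (ENSMUSG00000000290, chromosome 10, 77530252 to 77565708, plus strand), rose from 773, 888 and 796 CPM to 2712, 1789 and 2165 CPM (1.44 ± 0.21, adjusted p = 0.0015). Its partner Itgam, CD11b, was at 662, 841 and 713 CPM and 1077, 1115 and 938 CPM, without overlap but with an adjusted p above the threshold (0.50 ± 0.20, adjusted p = 0.128). Itgav, the alpha chain of vitronectin receptors, rose from 97.1, 114 and 155 CPM to 238, 752 and 409.6 CPM (1.93 ± 0.37, adjusted p = 0.00668), and Itga9, which binds tenascin and osteopontin, from 7.33, 7.37 and 7.16 CPM to 51.7, 53.4 and 42.3 CPM (2.75 ± 0.21, adjusted p = 3.26e-05). Itgb1, the common chain of matrix receptors, was at 578, 717 and 835 CPM and 1192, 920.4 and 929 CPM (0.51 ± 0.20, adjusted p = 0.108). Itgb7, the homing integrin chain, fell from 32.5, 47.7 and 77.6 CPM to 4.37, 3.51 and 4.90 CPM (-3.61 ± 0.33, adjusted p = 0.000107).

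Most genes of podosomes and focal adhesions did not pass the test. Of 37 tested, 8 rose, 2 fell and 27 were not called, the median being 0.34. Of all genes 7.52% rose and 7.38% fell, and the 2 that fell are near that share. Sh3pxd2a, which encodes the podosome scaffold TKS5, rose from 34.1, 38.9 and 45.8 CPM to 102, 97.2 and 128 CPM (1.46 ± 0.19, adjusted p = 0.000723). Actn1, an actin crosslinker, rose from 75.5, 93.8 and 83.3 CPM to 167, 233 and 211 CPM (1.27 ± 0.18, adjusted p = 0.00123), and Ptk2b, the kinase PYK2, from 166, 152 and 149 CPM to 342, 255 and 398 CPM (1.09 ± 0.19, adjusted p = 0.0036). Myo1e, a myosin of podosomes, rose from 168, 181 and 179 CPM to 551, 319 and 383 CPM (1.25 ± 0.24, adjusted p = 0.00711). The actin-binding gene Tmsb4x was among the largest rises in CPM, from 3047, 3759 and 4682 CPM to 7031, 9969 and 9062 CPM (1.18 ± 0.26, adjusted p = 0.0117). Without immature library 1, 4 of the list rose and 1 fell, and without immature library 2, 4 rose and 0 fell. The count was 5 and 1 by limma, and 8 and 6 without mature library 3. The call of Tmsb4x was lost without immature library 2 (adjusted p = 0.0558).

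Tetraspanins and other adhesion receptors were mixed, at 6 higher and 6 lower of 28 tested, against 7.52% and 7.38% of all genes. The tetraspanins Cd9 and Cd81, which are also on the list of fusion and osteoclast genes, rose, Cd81 from 125, 152 and 173 CPM to 870.5, 361 and 658 CPM (2.07 ± 0.31, adjusted p = 0.00168) and Cd9 from 163, 249 and 212 CPM to 554, 528 and 436 CPM (1.28 ± 0.22, adjusted p = 0.00399). Ninj1, a membrane protein that ruptures the plasma membrane in cell death, fell from 549, 381 and 243 CPM to 159, 137 and 173 CPM (-1.32 ± 0.27, adjusted p = 0.00801). Of 14 tested genes of fusion and osteoclasts, 3 rose (Cd9, Cd81 and Cd44) and 0 fell, with 1 lower at an unadjusted p under 0.05, and by DESeq2 7 rose and 0 fell. Cd44, a hyaluronan receptor, went from 148, 149.7 and 163 CPM to 267, 178 and 577 CPM (1.15 ± 0.35, adjusted p = 0.0489). Without mature library 3, the log2 fold change was 0.54 for Cd44 (adjusted p = 0.0865). The call of Cd44 was lost without immature library 1 (adjusted p = 0.113), immature library 2 (adjusted p = 0.147), immature library 3 (adjusted p = 0.094) and mature library 1 (adjusted p = 0.0526).

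Receptors that guide migration changed in both directions. Of 30 tested, 7 rose, 8 fell and 15 did not pass, against 7.52% of all genes that rose and 7.38% that fell. Ccr2, the receptor that brings monocytes out of the marrow (ENSMUSG00000049103, chromosome 9, 124101950 to 124113557, plus strand), fell from 180.5, 115 and 144 CPM to 0.0810, 0.585 and 3.37 CPM (-6.69 ± 0.73, adjusted p = 0.000331). Ptafr, the receptor of platelet-activating factor, fell from 490.0, 379 and 293 CPM to 105, 62.8 and 95.9 CPM (-2.14 ± 0.25, adjusted p = 0.00042), and Cmklr1, the chemerin receptor, from 92.4, 58.7 and 34.4 CPM to 7.53, 11.1 and 6.12 CPM (-2.92 ± 0.42, adjusted p = 0.00137). The neuropilins Nrp1 and Nrp2, coreceptors of semaphorins, were among those that rose. Among 16 tested chemokines, 4 rose and 2 fell, or 3 and 1 without immature library 1, immature library 2, mature library 2 or mature library 3. Cxcl14 went from 0.788, 1.94 and 5.75 CPM to 29.7, 79.7 and 90.5 CPM (4.63 ± 0.68, adjusted p = 0.00151), and Ccl4, an inflammatory chemokine, from 29.2, 29.98 and 25.7 CPM to 66.7, 72.8 and 139 CPM (1.71 ± 0.30, adjusted p = 0.00368). Without any one of the immature libraries, 4 guidance receptors rose and 7 or 8 fell. A fit lacking immature library 3 gave 5.60 for Cxcl14. With mature library 3 left out, the log2 fold change was -8.92 for Ccr2.

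Of the genes of matrix proteolysis, urokinase and its receptor rose. Plau, urokinase (ENSMUSG00000021822, chromosome 14, 20836660 to 20843385, plus strand), was at 114, 135 and 315 CPM in immature and 1164, 2024 and 1874 CPM in mature macrophages (3.17 ± 0.50, adjusted p = 0.00224). Plaur, the surface receptor that holds urokinase, rose from 21.4, 18.5 and 25.6 CPM to 109, 104 and 147 CPM (2.46 ± 0.20, adjusted p = 4.55e-05). The wider list, with other enzymes that act on matrix, had 20 tested genes, of which 6 went up, 5 went down and 9 did not pass, the median being -0.27. The 5 that fell were coagulation, transglutaminase and inhibitor genes: Serpine2, Tgm1, F10, F13a1 and F7. F13a1, the coagulation factor XIII A chain, fell from 216, 182 and 261 CPM to 0.890, 1.05 and 0 CPM (-8.48 ± 0.60, adjusted p = 2.22e-05), while the tissue transglutaminase Tgm2 rose from 46.9, 36.6 and 47.7 CPM to 90.3, 185 and 224 CPM (1.93 ± 0.30, adjusted p = 0.00217). The log2 fold change without mature library 3 was -7.82 for F13a1.

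Metalloproteinases split evenly. Of 19 tested enzymes and inhibitors, 4 rose (Mmp12, Mmp13, Adam8 and Timp2), 4 fell (Mmp8, Mmp27, Adam19 and Timp3) and 11 did not pass. Among all genes, 7.52% rose and 7.38% fell. Mmp12, macrophage elastase (ENSMUSG00000049723, chromosome 9, 7344381 to 7369499, plus strand), was at 90.5, 81.6 and 78.2 CPM in immature and 1357, 256 and 1936 CPM in mature macrophages, where library 2 was the lowest (3.83 ± 0.57, adjusted p = 0.00175). Adam8, a surface sheddase (ENSMUSG00000025473, chromosome 7, 139978932 to 139992562, minus strand), rose from 600.4, 802 and 1001 CPM to 4832, 4174 and 4044 CPM (2.44 ± 0.28, adjusted p = 0.000395). Mmp8, the collagenase of neutrophil granules, fell from 78.7, 87.3 and 86.7 CPM to 0.243, 1.29 and 4.52 CPM (-5.34 ± 0.63, adjusted p = 0.000458), and Adam19 from 40.3, 29.3 and 17.3 CPM to 0, 1.17 and 0.153 CPM (-6.27 ± 0.67, adjusted p = 0.000283). Mmp9, gelatinase B, was near 0 in both groups, at 0.158, 0.205 and 0.128 CPM and 4.05, 0.234 and 0.536 CPM (3.27 ± 1.03, adjusted p = 0.0582). Without immature library 2, 2 of the list rose and 4 fell. Without mature library 1, the log2 fold change was -5.63 for Adam19. A fit lacking mature library 2 gave -8.37 for Adam19. With mature library 3 left out, the log2 fold change was -6.90 for Mmp8.

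Lysosomal proteases and hydrolases mostly did not pass the test. Of 18 cathepsin genes tested, 0 rose and 3 fell, with 2 higher and 4 lower at an unadjusted p under 0.05, 1 higher and 3 lower by DESeq2, and 1 higher and 2 lower by limma. Of 36 lysosome genes, 3 rose and 2 fell, a share near the background, and without immature library 2 or mature library 1, 1 rose and 1 fell. Psap, the precursor of the saposins, fell from 20138, 12846 and 10018 CPM to 5699.7, 3959 and 5211 CPM (-1.53 ± 0.31, adjusted p = 0.00817). Among 20 tested matrix components, 3 rose and 2 fell, against 7.52% and 7.38% of all genes. Thbs1, thrombospondin 1 (ENSMUSG00000040152, chromosome 2, 118111876 to 118127133, plus strand), fell from 169, 71.7 and 53.04 CPM to 0.648, 0.351 and 1.45 CPM (-6.82 ± 0.59, adjusted p = 7.29e-05), and the proteoglycan Vcan from 5.36, 8.70 and 6.90 CPM to 0.405, 0.351 and 0.689 CPM (-3.78 ± 0.41, adjusted p = 0.000331). Spp1, osteopontin, was among the largest rises in CPM, from 1799.6, 2567 and 2279.5 CPM to 5486, 5395 and 7705 CPM (1.48 ± 0.40, adjusted p = 0.0319). Fn1, fibronectin, was near 0 in both groups. The count of matrix genes that rose was 0 without immature library 2, immature library 3 or mature library 3, and 1 without immature library 1 or mature library 2. The log2 fold change without immature library 1 was -6.16 for Thbs1. Without mature library 3, the log2 fold change was -7.53 for Thbs1. The call of Spp1 was lost without immature library 1 (adjusted p = 0.0909), immature library 2 (adjusted p = 0.0817), immature library 3 (adjusted p = 0.0693), mature library 2 (adjusted p = 0.054) and mature library 3 (adjusted p = 0.0648).

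**Figure D5:**
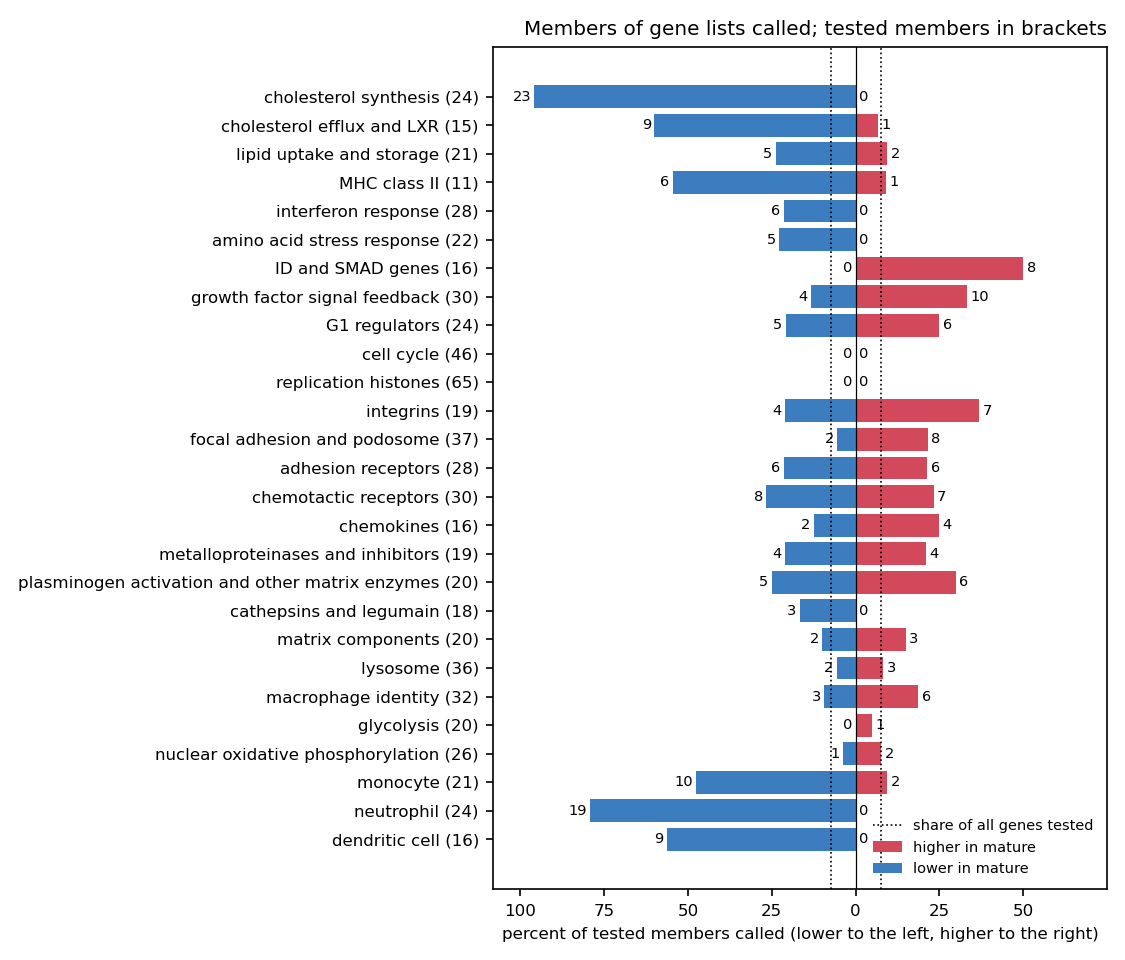
Bars give the percent of tested members of each list that fell (left, blue) or rose (right, red), with the counts at the bar ends and the tested members in brackets. Dotted lines mark the 7.38% and 7.52% of all genes, and cholesterol synthesis (23 of 24 lower) and neutrophil genes (19 of 24 lower) reach furthest from them. Members passed a filter over all 9 libraries, and with only the 6 compared, 14 of 17 neutrophil genes fell.

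Most amino acid stress genes had a log2 fold change below 0, while few genes of glycolysis and oxidative phosphorylation passed the test. Phgdh, the entry enzyme of serine synthesis (ENSMUSG00000053398, chromosome 3, 98313170 to 98339990, minus strand), fell from 13.9, 45.7 and 58.2 CPM to 0.405, 0.351 and 0.306 CPM (-6.75 ± 0.59, adjusted p = 7.82e-05), though another gene shares 56.3% of its 31-base words. It belongs to a list of 22 tested amino acid stress genes, of which 0 rose and 5 fell. The median was -0.97, and 20 of the 22 had a log2 fold change below 0. At an unadjusted p under 0.05, 0 were higher and 13 lower. The members that fell numbered 9 by DESeq2, 3 by limma, 8 without immature library 1 or mature library 1, and 3 without immature library 2 or 3. Slc2a1, the glucose transporter GLUT1, rose from 11.9, 15.3 and 19.04 CPM to 71.4, 35.8 and 79.2 CPM (2.02 ± 0.30, adjusted p = 0.00171), the only one of 20 tested glycolysis genes to pass the test, while 2 rose without mature library 2 or mature library 3. Of 26 nuclear genes of oxidative phosphorylation, 2 rose (Cycs and Cox7a2) and 1 fell (Cox5a), shares close to the 7.52% and 7.38% of all genes. None was called without immature library 2 or mature library 2, and none fell without immature library 1, immature library 3 or mature library 1. The zinc and iron importers Slc39a14 and Slc39a8 rose, Slc39a14 from 12.1, 13.8 and 20.7 CPM to 59.3, 85.1 and 64.5 CPM (2.17 ± 0.37, adjusted p = 0.00329).

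Markers of neutrophils, monocytes and dendritic cells were often lower in mature macrophages, and the counts for other cell types are given after them. Of 24 tested neutrophil genes, 19 fell, 0 rose and 5 did not pass, with 1 higher at an unadjusted p under 0.05 and by DESeq2 and 0 by limma. The median was -6.72, and it was -4.99 when each gene at 0 reads was given its bound. The filter behind these counts ran over all 9 libraries, precursors included. With only the 6 libraries filtered and fitted, 17 neutrophil genes were tested, of which 14 fell and 0 rose. S100a9, a calprotectin chain, was at 81.7, 53.2 and 76.4 CPM in immature macrophages and had 0 reads in the mature libraries, at least 806-fold lower (adjusted p = 1.83e-05). The bound was 513 without mature library 1 and 496 without mature library 3. Ngp, a granule protein, was at 36.4, 25.9 and 32.1 CPM and 0 reads, at least 361-fold lower, or 229.8 without mature library 1 and 222 without mature library 3. Summed over the neutrophil list, the level was 384, 289.9 and 328 CPM in immature and 20.4, 31.2 and 32.1 CPM in mature libraries, against 16406 CPM in the lowest precursor library. The defining markers Mpo, S100a9 and Ngp were at 0 in all 3 mature libraries.

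Of 21 tested monocyte genes, 10 fell, 2 rose (S100a6 and Cx3cr1) and 9 were not called, the median being -1.95. None rose without immature library 1, without immature library 2 or by limma, 10 fell in each of these, and the median was -0.87 without immature library 1. Chil3, a secreted lectin of monocytes and neutrophils, had 903 reads over the immature and 1 over the mature libraries, a pooled ratio of 1013 with an exact 95% counting interval from 181 to 40041 (adjusted p = 2.83e-06). The ratio was 644 without mature library 1, and without mature library 3 the fold was at least 208. Of its words, 41.5% occur in another gene. Ly6c2, the marker of inflammatory monocytes, named after its values were seen, was at 6.70, 7.47 and 9.46 CPM and 0 reads. Of 16 tested dendritic cell genes, 9 fell and 0 rose, with 0 higher at an unadjusted p under 0.05 and by DESeq2 and limma. Irf4, a factor of dendritic cells and B cells, fell from 11.98, 10.8 and 8.82 CPM to 0.971, 2.11 and 3.29 CPM (-2.31 ± 0.36, adjusted p = 0.00229). Cd28, a T cell costimulator, stood higher in immature macrophages than in the other 6 libraries, at 3.16, 3.76 and 3.85 CPM in precursors, 166, 89.6 and 62.2 CPM in immature and 7.61, 3.51 and 5.59 CPM in mature macrophages (-4.23 ± 0.40, adjusted p = 0.000115). Of all genes tested, 14.9% were called. The other lists held 1 called gene of 13 for B cells (Cd79b, lower), 2 of 8 for T and NK cells (Cd4 and Cd28, lower) and 4 of 16 for erythroid cells and megakaryocytes (Epor, Ppbp, Itga2b and Gp9, lower). Some members had 0 reads in 1 group and at most 3 in the other, and could hardly be called. They numbered 10 for B cells, 5 for T and NK cells and 8 for the erythroid list. For progenitors they numbered 6, and for mast cells, basophils and eosinophils 9. Of 15 progenitor genes, 4 fell (Kit, Myb, Flt3 and Sox4) and Cd34 rose. Of 13 genes of mast cells, basophils and eosinophils, 2 fell (Hdc and Prg2) and Ccr3 rose. Of 8 fibroblast, stromal and endothelial genes, 2 fell (Acta2 and Pecam1) and 2 rose (Kitl and Kdr). Cd34 was not called without immature library 1, immature library 2 or mature library 2, and 0 of the stromal list rose without immature library 2, immature library 3 or mature library 2. The erythroid list had 2 lower without immature library 1, immature library 2, mature library 2 or mature library 3. The sums of the lists give the same order for neutrophil genes but not for monocyte, dendritic or progenitor genes. The progenitor sums were 17.3, 18.5 and 23.9 CPM in immature and 15.6, 32.4 and 23.1 CPM in mature libraries. The dendritic sums were 368, 292 and 324 CPM in immature and 326, 581 and 273 CPM in mature libraries. The monocyte sums were 1817, 1898 and 2379 CPM in immature and 2678, 3115 and 1327 CPM in mature libraries. S100a4, the most abundant monocyte gene of the list, did not pass the test. When only the 6 libraries were fitted, precursors no longer counted in the filter and fewer members were tested. The dendritic list then had 4 of 6 tested genes lower, and the progenitor list 1 of 3 lower and 0 higher. Of 18 monocyte genes in that fit, 10 fell and 1 rose. In the same fit 3 of 6 erythroid genes, 1 of 3 B cell genes and 2 of 2 T and NK cell genes fell. Of 4 stromal genes 2 rose and 0 fell, and the 1 tested gene of mast cells, basophils and eosinophils was not called. The part of these cell markers in the falls of Ccr2, Mmp8, F13a1, Thbs1 and the class II genes was not tested.

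The share of mitochondrial transcripts differed in 1 of the 6 libraries. Mitochondrial transcripts made up 0.363% of reads in mature library 3 and 0.0579% to 0.149% in the other 5. In the precursor libraries they made up 0.382% to 0.505%. A link of this share to RNA quality was not tested. None of 13 mitochondrial genes passed edgeR's test, with 3 higher and 1 lower at an unadjusted p under 0.05, 0 by DESeq2 and 1 lower by limma, and without mature library 3, 7 were lower. A pair of noncoding RNAs was among the largest falls in CPM. Gas5, which hosts small nucleolar RNAs, went from 1735, 1306 and 3195 CPM to 119, 136 and 173 CPM (-3.86 ± 0.66, adjusted p = 0.00335), and Rmrp, the RNA of a mitochondrial processing enzyme, from 20995, 20687 and 11584 CPM to 6129, 6111 and 9256 CPM (-1.31 ± 0.31, adjusted p = 0.0185), where all of the 31-base words occur in another gene. The call of Rmrp was lost without immature library 2 (adjusted p = 0.0728), mature library 1 (adjusted p = 0.0508) and mature library 2 (adjusted p = 0.0578).

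Mature macrophages kept a further 48 h at 120 ng/ml were measured in a separate table of 2408531 to 4214266 reads a library. Some genes stand near 0 throughout that table, among them C1qa at 4.27, 2.49 and 2.32 RPM, Gas5 at 0.237, 0 and 0.258 RPM and Phgdh at 0, 0 and 0 RPM (reads scaled to the library total, without TMM). How its reads were counted is not given in the sources used here, so no level or 0 in it is compared with the other table. Plau was at 1713, 1941 and 1546 RPM, Cdkn2a at 55.5, 51.5 and 85.8 RPM and Ccnd1 at 623, 531 and 574 RPM. Scd2 was at 98.2, 28.2 and 62.1 RPM and Hmgcs1 at 84.5, 61.03 and 129.9 RPM.

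The authors' deposited table of this comparison lists 1494 genes under an FDR of 0.05, of which 1429 were tested here. The genes called here and listed there number 1308, which is 87.6% of their list and 65.7% of the calls here.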

How the data were processed

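RNA was purified on columns with DNase treatment and 1 µg of it was sequenced by Ion Torrent, per the labels' protocols. Per the submitters' processing notes, HISAT2 2.0.5 aligned the reads, edgeR was used, and the genome builds are GRCm38.p6 and GRCm39.p6. How reads were counted, and with which strand setting, is "not given in the sources used here", so reads of overlapping or antisense genes cannot be told apart. For 9 libraries the authors deposited raw counts of reads (34245 genes), log2 RPM values for the same libraries, and lists of genes with an adjusted p-value (FDR). Of 34162 identifiers, 34045 were found in GENCODE M21 (GRCm38), 34041 of them at an overlapping place and 31723 with the same start and end. Coordinates printed are those of the deposited table.

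edgeR 4.0.16 (R 4.3.3) was run on the counts. A filter by filterByExpr was applied (minimum count 10, by group), libraries were scaled by TMM, and genes were tested with glmQLFit and glmQLFTest, with the 3 groups in 1 fit and mature minus immature as the contrast. Benjamini-Hochberg adjustment ran over 13359 genes, and an adjusted p under 0.05 made a call. The steps were tested on simulated data. Against 0 reads in a group, the fold is a bound from 3 reads over the group, and with 1 to 3 reads the pooled ratio is given with its exact 95% interval. In list medians with bounds, genes with 0 reads in 1 group and at most 3 in the other were left out. Promoter windows are RefSeq's, and shared sequence was counted as 31-base words of GENCODE M21 transcripts found in another gene on either strand.

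The members and the gene lists were chosen with earlier results of these data known. Genes named are the 10 highest and 10 lowest fold changes among called genes (no overlap, no predicted name, 2-fold or more, and 20 CPM or more in the higher group), the 5 largest rises and falls in CPM, up to 4 called members of each list by lowest p, at 5 CPM or more, the most abundant and any called member over 20 CPM of each list of cell types or quality, and a few genes always named, such as Csf1r and Mki67. Others are named only as counted members, and a few genes are not reported here. Alternatives were RLE scaling, DESeq2 1.42.0, no filter, a filter of 1 CPM in at least 3 libraries, limma 3.58.1 on the deposited log2 RPM, only the 6 libraries, the mouse number as a replicate block, leaving out each library, and an adjusted p under 0.001. Figures were drawn with matplotlib 3.10.9.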

Additional observations from a re-analysis of the deposited data

How the results depend on the processing

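Against 1005 genes higher and 986 lower, a fit of only the 6 libraries called 633 and 612, and an adjusted p under 0.001 left 87 and 123. Leaving out each of the 6 libraries gave 423 to 1266 higher and 584 to 1436 lower, the fewest without immature replicate 2 and the most without mature replicate 3. RLE scaling, DESeq2, no filter, the filter at 1 CPM and limma kept both counts within 1.5 times. In these settings no gene called here was called in the other direction. Of 139 named genes called, 106 kept the call in each refit that tested them and 33 lost it in at least 1. The stricter threshold of 0.001 was not part of this count. Dusp6, for example, did not pass it (adjusted p = 0.00291 by edgeR's test). The log2 fold changes of 5 genes that were not called changed sign. Without 1 library, Cd68 ran from -0.61 to 0.15, with 0.075 without immature replicate 1, and Fn1 from -2.48 to 0.38, with 0.0032 without mature replicate 1. Mki67 ran from -0.68 to 0.21, Spi1 from -0.45 to 0.028 and the mitochondrial gene mt-Co1 from -0.77 to 0.54. The value of mt-Co1 was -0.13 by limma and -0.0069 with the replicate block. The cause was not tested.

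The mouse numbers were used as a replicate block in an alternative, which called 743 higher and 804 lower. Between same-numbered libraries, the departures from the group mean had correlations of 0.165, -0.0197 and 0.0165. Not each library correlated best with its own number. With so few libraries these values cannot settle whether the same mouse gave the libraries of a number. The main fit treated the groups as unpaired. Each fit that left out a library applied the filter again. At 7897769 to 13937925 reads a library, changes of genes with a few reads in 1 group are poorly sized.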

Other observations

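Most genes that host small nucleolar RNAs fell in mature macrophages. This family, taken by name after the values were seen, has 11 tested genes (Gas5 and those named Snhg), of which 8 fell, 1 (Snhg6) rose and 2 did not pass. Their summed level was 6124, 4729.7 and 9548 CPM in immature and 1292, 1576 and 1512 CPM in mature libraries, and all 3 mature sums lay below the immature ones. Of 80 tested cytosolic ribosomal protein genes, also taken by name, 11 fell and 0 rose, 61 had a log2 fold change below 0 and the median was -0.23. Of 65 translation factor genes, 6 rose and 5 fell, with a median of 0.030. Immature library 3 was the highest of its group in the sum of the host genes.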
